A study of Mus musculus with 15 samples.

Results

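The TGF-beta ligands, their receptors and the SMAD proteins that carry their signal were examined in whole hearts of mice carrying the H222P allele of Lmna. The set was 10 genes: the ligand genes Tgfb1, Tgfb2 and Tgfb3, the receptor genes Tgfbr1, Tgfbr2 and Tgfbr3, the SMAD genes Smad2, Smad3 and Smad7, and Tgfbi, a gene named for its induction by TGF-beta. Members were taken by symbol, and every probe set that the platform annotation ties to a single member was used, which gave 26 probe sets for 10 of the 18193 genes named on the arrays. Probe sets are groups of short probes that together report the signal of a transcript. The hearts came from 7 male mice labelled Lmna H222P heterozygous and 8 male mice labelled Control, with 1 array per mouse. All were 10 weeks old by the labels, and the strain of the mice is not given in the sources used here. The Lmna product, lamin A/C, forms the filament mesh under the nuclear membrane. H222P denotes a histidine-to-proline substitution in it, found in human Emery-Dreifuss muscular dystrophy, which often affects the heart. The mice are numbered within a group, and the labels are silent on litters and batches; the p-values cover only the spread among these 15 hearts, which may be partly technical.

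TGF-beta proteins are secreted in a latent form, bound to a propeptide and stored in the matrix until they are released. Active ligand binds the type II receptor TGFBR2, which phosphorylates the type I receptor TGFBR1, while betaglycan, the product of Tgfbr3, presents ligand to them. TGFBR1 phosphorylates SMAD2 and SMAD3, which join SMAD4 and enter the nucleus, and SMAD7 is an inhibitor that the pathway itself induces. In the heart, TGF-beta is known for driving fibroblasts to make collagen and contractile proteins, and its signalling has been studied in the fibrosis of lamin heart disease.

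SMAD3 and SMAD4 recognise the short motif CAGAC, or GTCTG on the other strand. The sequences below are the 250 bases before the RefSeq start of Tgfb2, Tgfbr2 and Tgfbi, shown because these genes had the probe sets with a positive difference and an unadjusted p under 0.05. They read 5′ to 3′ on the gene's strand of GRCm38.p6, with CAGAC and GTCTG in capitals. They lie at chr1:186705990-186706239 (minus strand), chr9:116175364-116175613 (minus strand) and chr13:56609336-56609585 (plus strand).
Tgfb2: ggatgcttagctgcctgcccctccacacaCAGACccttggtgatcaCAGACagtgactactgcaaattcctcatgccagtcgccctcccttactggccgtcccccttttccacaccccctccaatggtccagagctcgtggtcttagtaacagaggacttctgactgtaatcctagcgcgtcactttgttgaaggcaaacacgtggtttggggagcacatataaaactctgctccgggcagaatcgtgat
Tgfbr2: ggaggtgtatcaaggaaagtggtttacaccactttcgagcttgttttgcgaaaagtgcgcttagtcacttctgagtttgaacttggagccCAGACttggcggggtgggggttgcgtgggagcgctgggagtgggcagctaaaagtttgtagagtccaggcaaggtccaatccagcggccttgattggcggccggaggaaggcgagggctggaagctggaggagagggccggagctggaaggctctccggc
Tgfbi: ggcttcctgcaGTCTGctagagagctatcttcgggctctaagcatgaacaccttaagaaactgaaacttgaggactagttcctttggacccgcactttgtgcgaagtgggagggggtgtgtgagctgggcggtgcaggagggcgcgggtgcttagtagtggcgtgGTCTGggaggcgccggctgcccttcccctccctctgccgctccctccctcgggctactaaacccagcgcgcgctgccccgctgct
The motif begins 221 and 204 bases before the start of Tgfb2 and 160 bases before that of Tgfbr2. In Tgfbi it occurs as GTCTG, 239 and 85 bases before the start. RefSeq windows of 6 members were examined, 7 windows in all, and 4 of the 7 held the motif on either strand. Windows of the remaining members were left out of this count, so it does not describe the whole set. Of all 32851 promoter windows of this length, which were not selected in that way, 42.2% held the motif. A match describes the letters of the window and was not tested as a binding site.

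The comparison asked whether transcripts of these genes differ between heterozygous and control hearts. No member passed. Of the 26 probe sets, 25 had a log2 signal over 4 on at least 7 of the 15 arrays and were tested, and 0 were higher and 0 lower at an adjusted p under 0.05 (limma's moderated test, two-sided, Benjamini-Hochberg over 38870 probe sets). Over all tested probe sets 0.0900% were called higher and 0.162% lower. The smallest adjusted p of limma among the members was 0.0712, in a probe set of Tgfbi. At an unadjusted p under 0.05 there were 6 member probe sets of 5 genes, 3 higher and 3 lower, which is 24.0% of those tested. The share over all tested probe sets was 14.6%, made up of 4.44% higher and 10.1% lower. No member probe set had groups that did not overlap, against 0.468% of all tested probe sets. Differences below are log2 signal in heterozygous minus control hearts, with 95% intervals, and folds are ratios of geometric means. The median difference was 0.14 over the 25 member probe sets and -0.11 over all tested probe sets. That general shift depends on how the arrays are scaled: it was 0.10 after centring the arrays on their medians and -0.02 after quantile normalization. Median centring subtracts a single value from each array, so it moved the differences of all probe sets by the same amount. The median-centred values of single genes below carry this common move. Array medians lay between 56.7 and 94.2 signal units, and the number of arrays limits the precision.

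**Figure D1:**
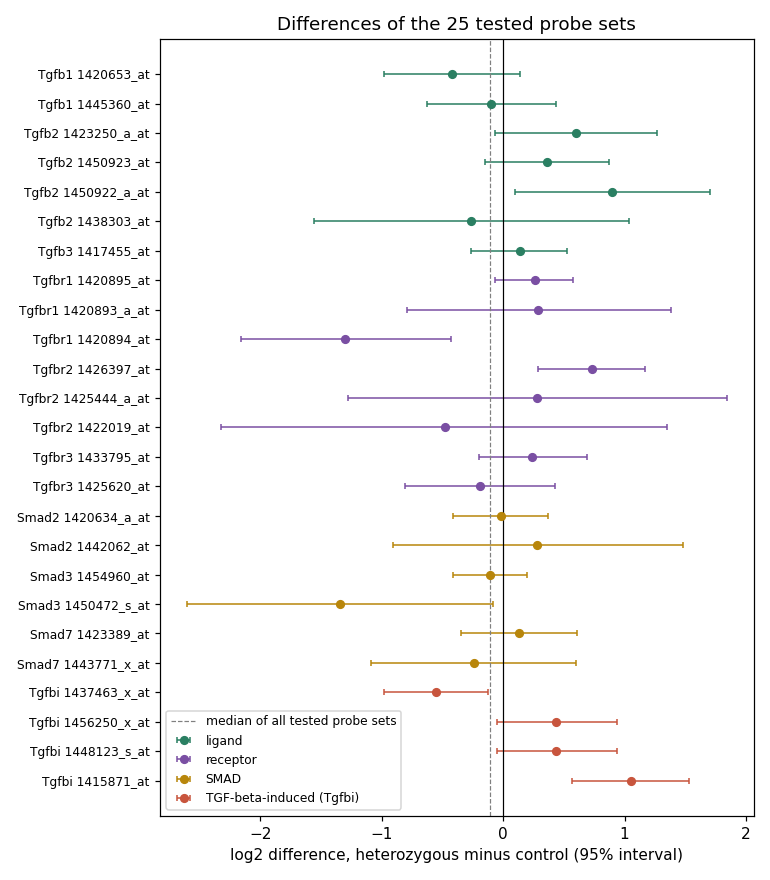
Log2 difference, heterozygous minus control, of each of the 25 tested probe sets on the horizontal axis, with 95% intervals as bars, coloured by role. A solid line marks 0 and a dashed line the median of all tested probe sets, -0.11. The intervals of 6 probe sets do not include 0, those of Tgfb2 1450922_a_at, Tgfbr2 1426397_at and Tgfbi 1415871_at above it and those of Tgfbr1 1420894_at, Smad3 1450472_s_at and Tgfbi 1437463_x_at below it.

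Tgfb1 encodes the ligand most often tied to tissue fibrosis. Its brighter probe set, 1420653_at, had a lowest, median and highest signal of 205.0, 417.6 and 628.7 units in heterozygous hearts, against 344.2, 521.3 and 609.1 units in control hearts. Heterozygous arrays 2, 3 and 5, at 226.3, 231.6 and 205.0 units, lay below every control, and the other 4 heterozygous arrays lay within or above the control range. The difference was -0.42 (95% interval -0.98 to 0.14), a fold of 0.747 with limma's adjusted p = 0.484. It was -0.22 after median centring and -0.44 after quantile normalization. These 3 heterozygous arrays also had the highest ratios of the 3′ to the 5′ Actb control probe sets of their group, a measure that climbs as RNA breaks down: 1.69, 1.32 and 1.41 on the log2 scale. Over the groups this ratio was 0.33, 0.71 and 1.69 (lowest, median and highest) in heterozygous hearts, against 0.29, 0.56 and 1.23 in control hearts. The same ratio of the Gapdh control probe sets was 0.37, 0.285 and 0.06 in heterozygous arrays 2, 3 and 5, and -0.27 to 0.16 in control hearts. Control array 6 had the highest Actb ratio of its group. Without it and these 3 heterozygous arrays the difference of Tgfb1 was 0.08 (limma's adjusted p = 0.886). As the 3 hold the lowest heterozygous signals of Tgfb1, leaving them out was bound to raise the heterozygous mean. Whether RNA quality had a part in these signals was not tested. Control array 6 itself, at an Actb ratio of 1.23, had 414.2 units, neither the lowest nor the highest of the controls. The dimmer probe set 1445360_at spanned 46.3, 104.0 and 118.3 units in heterozygous and 60.9, 107.5 and 152.1 units in control hearts, with overlapping groups and a difference of -0.10.

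**Figure D2:**
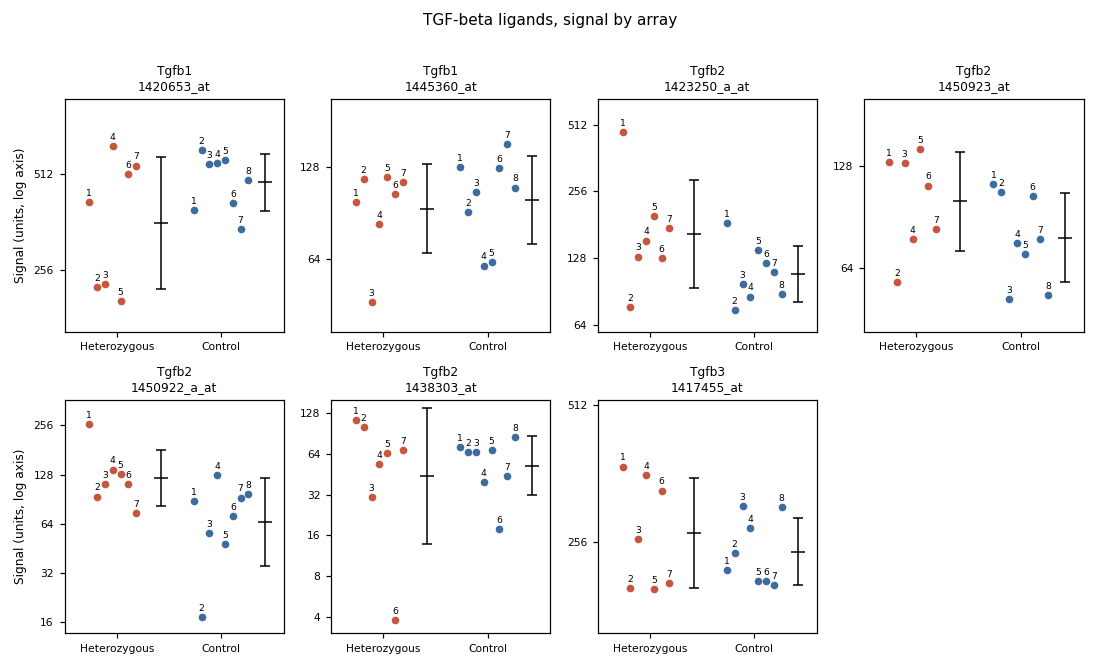
Signal of each ligand probe set on every array (log axis, signal units), with heterozygous hearts left of control hearts and each point labelled with its array number. The black marks are geometric means ± 1 SD of log2 signal, and heterozygous array 1 stands highest in Tgfb2 1423250_a_at at 475.9 units.

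Tgfb2 encodes a ligand that depends on betaglycan for efficient receptor binding. Its brightest probe set, 1423250_a_at, had 77.3, 153.6 and 475.9 units in heterozygous hearts (lowest, median and highest) against 74.6, 104.6 and 183.4 units in control hearts. Of the 7 heterozygous arrays 6 lay above the control median, array 1 was far above the rest, and the groups overlapped. The difference was 0.60 (-0.07 to 1.27), a fold of 1.52 with limma's adjusted p = 0.397, and it was 0.35 without heterozygous array 1. Probe set 1450922_a_at had 74.8, 112.5 and 258.9 units in heterozygous hearts, against 17.3, 80.0 and 126.6 units in control hearts. Array 1 was again the highest of the heterozygous hearts, and control array 2 the lowest of all. Here the difference was 0.90 (0.10 to 1.70), a fold of 1.86 with an unadjusted p of 0.0307 and limma's adjusted p = 0.295. The third, 1450923_at, differed by 0.36 (-0.15 to 0.87), with 58.5, 112.3 and 144.1 units in heterozygous and 52.1, 77.1 and 113.6 units in control hearts. The fourth, 1438303_at, ran the other way with a wide interval, -0.26 (-1.56 to 1.04), at 3.8 to 113.5 units in heterozygous and 17.9 to 85.8 units in control hearts.

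Tgfb3, the remaining ligand gene, had a single probe set. Signals of 1417455_at were 201.1, 259.4 and 374.9 units in heterozygous hearts, against 205.1, 231.3 and 306.0 units in control hearts. The groups overlapped, and the lowest and the highest signal were both from heterozygous arrays. The difference was 0.14 (-0.26 to 0.53), a fold of 1.10 with limma's adjusted p = 0.774. It was 0.05 without heterozygous array 1, 0.06 without array 4 and 0.08 without array 6. After median centring it was 0.34 and after quantile normalization 0.17. It was 0.26 with the Actb ratio as a covariate and 0.32 without the 4 arrays of high Actb ratio.

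Tgfbr2, the type II receptor that starts the phosphorylation chain, had the most regular difference among the receptors. Its bright probe set 1426397_at measured 709.3, 1135.7 and 2012.0 units in heterozygous hearts, against 492.4, 696.8 and 929.4 units in control hearts. All 7 heterozygous arrays lay above the control median and 6 lay above every control, the exception being array 5 at 709.3 units. The difference was 0.73 (0.29 to 1.17), a fold of 1.66 (1.22 to 2.24), with an unadjusted p of 0.00294 and limma's adjusted p = 0.153. Without the 4 arrays of high Actb ratio it was 0.67. The other probe sets of Tgfbr2 were dim, with medians below every array median: 1425444_a_at spanned 5.5, 17.0 and 132.5 units in heterozygous and 10.1, 11.7 and 199.7 units in control hearts. The remaining probe set, 1422019_at, spanned 2.2, 21.4 and 90.4 units in heterozygous and 3.6, 31.0 and 91.5 units in control hearts. Their differences of 0.28 (-1.28 to 1.84) and -0.48 (-2.32 to 1.35) are too imprecise to set against that of the bright probe set.

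Tgfbr1 encodes the type I receptor kinase. Its bright probe set 1420895_at had 534.6, 706.1 and 768.0 units in heterozygous hearts, against 399.5, 613.1 and 758.2 units in control hearts. The groups overlapped, with 6 of 7 heterozygous arrays above the control median. The difference was 0.26 (-0.07 to 0.58), a fold of 1.20 with limma's adjusted p = 0.455. It was 0.46 after median centring and 0.23 after quantile normalization. A dim probe set, 1420894_at, pointed the other way, at 9.6, 22.5 and 63.6 units in heterozygous hearts against 44.5, 59.1 and 111.7 units in control hearts. In it 5 of 7 heterozygous arrays lay below every control. Its difference was -1.30 (-2.16 to -0.43), with an unadjusted p of 0.00611 and limma's adjusted p = 0.188, and it was -0.13 once signals under a log2 of 6 were set to 6. The probe set 1420893_a_at differed by 0.29 (-0.79 to 1.38), with 12.0, 51.0 and 89.4 units in heterozygous and 8.5, 57.9 and 68.7 units in control hearts.

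Tgfbr3 encodes betaglycan. Its bright probe set 1433795_at had 1031.8, 1594.3 and 2958.8 units in heterozygous hearts, against 1193.5, 1295.4 and 1734.5 units in control hearts. Heterozygous hearts fell on both sides of the controls: arrays 2, 3 and 5, at 2002.0, 1908.1 and 2958.8 units, lay above every control, and arrays 6 and 7, at 1097.7 and 1031.8 units, below every control. The difference was 0.24 (-0.20 to 0.69), a fold of 1.18 with limma's adjusted p = 0.622. It was 0.09 without heterozygous array 5, 0.45 after median centring and 0.18 after quantile normalization. The 3 high arrays are the same heterozygous arrays that were low in Tgfb1 and had high Actb ratios. Without them and control array 6 the difference was -0.12 (limma's adjusted p = 0.778). As the 3 hold the highest heterozygous signals of Tgfbr3, leaving them out was bound to lower the heterozygous mean. Whether RNA quality had a part was not tested. Control array 6 itself had 1338.2 units, neither the lowest nor the highest of the controls. With the Actb ratio as a covariate in the fit of all arrays the differences were 0.05 for Tgfbr3 and -0.16 for Tgfb1. The dimmer probe set 1425620_at had 82.0, 150.2 and 326.8 units in heterozygous and 81.7, 190.3 and 271.9 units in control hearts, with a difference of -0.19.

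**Figure D3:**
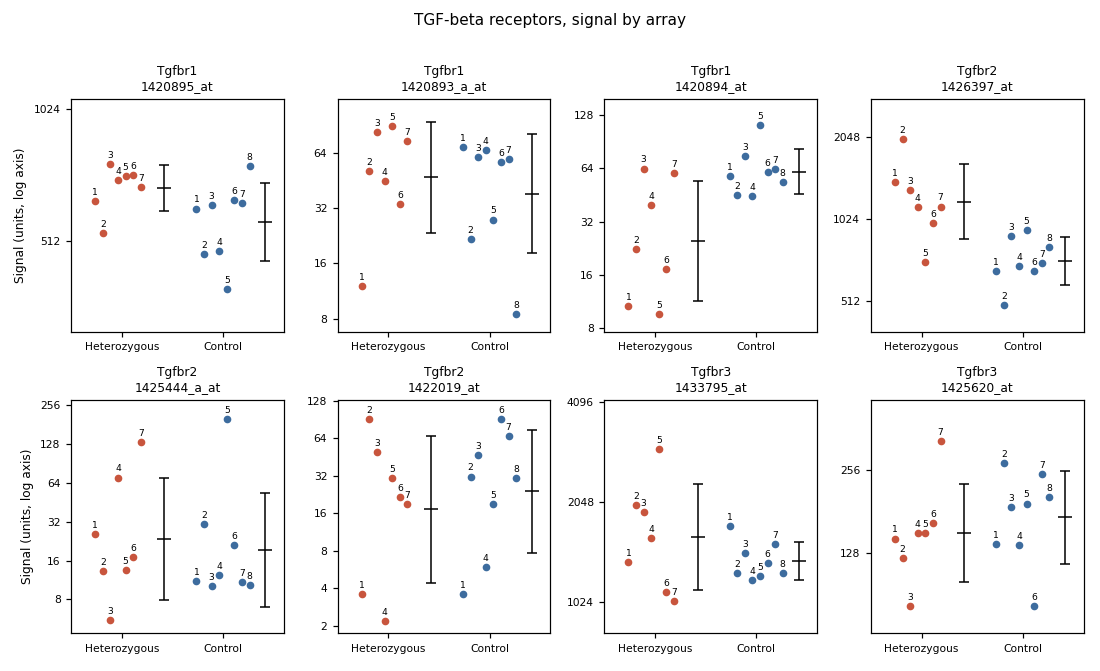
Signal of each receptor probe set on every array (log axis, signal units), with heterozygous hearts left of control hearts, array numbers beside the points and geometric means ± 1 SD of log2 signal in black. In Tgfbr2 1426397_at 6 of 7 heterozygous arrays lie above the highest control, 929.4 units, and in Tgfbr3 1433795_at the heterozygous arrays run from 1031.8 to 2958.8 units.

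**Figure D4:**
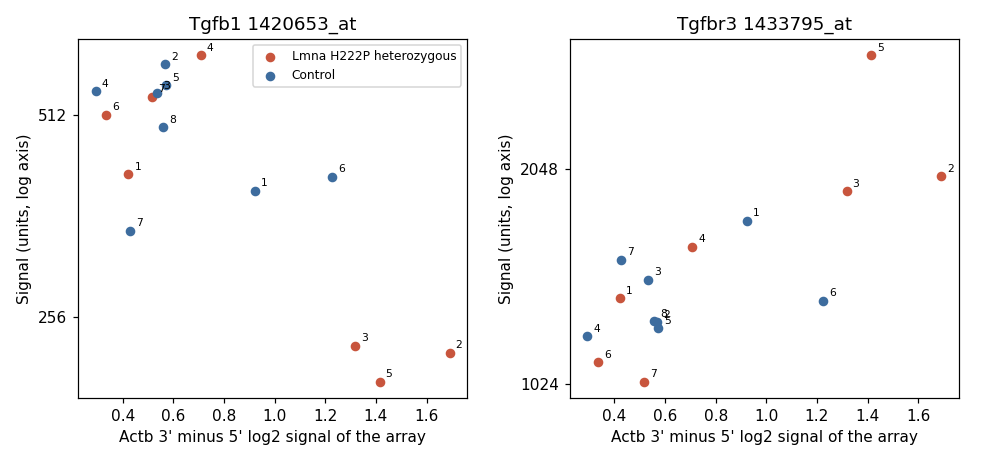
Signal of Tgfb1 1420653_at and Tgfbr3 1433795_at (log axis, signal units) against the log2 difference of the 3′ and 5′ Actb control probe sets of the same array, with array numbers beside the points. Heterozygous arrays 2, 3 and 5, at ratios of 1.69, 1.32 and 1.41, are the lowest 3 points of Tgfb1 and the highest 3 of Tgfbr3.

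Smad2 and Smad3 encode the transcription factors that the receptors phosphorylate, an event these arrays do not measure. Smad2 1420634_a_at had 214.6, 313.3 and 347.1 units in heterozygous hearts, against 191.1, 301.8 and 467.4 units in control hearts. Heterozygous arrays lay within the control range. The difference was -0.02 (-0.41 to 0.37), a fold of 0.986 with limma's adjusted p = 0.972, and its sign turned under several other settings. The dimmer 1442062_at differed by 0.28 (-0.91 to 1.48), at 28.4, 124.6 and 200.8 units in heterozygous and 10.9, 125.8 and 184.8 units in control hearts.

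Smad3 1454960_at had 280.1, 384.6 and 442.3 units in heterozygous hearts, against 314.9, 394.5 and 492.9 units in control hearts. The groups overlapped widely, and the difference was -0.11 (-0.41 to 0.20), a fold of 0.928 with limma's adjusted p = 0.767. It was 0.10 after median centring and -0.12 after quantile normalization. The dim probe set 1450472_s_at had 3.3, 50.6 and 82.0 units in heterozygous hearts, against 43.0, 114.3 and 190.9 units in control hearts. All 7 heterozygous arrays lay below the control median, but the groups overlapped and array 2, at 3.3 units, weighed heavily. The difference was -1.34 (-2.60 to -0.08), with an unadjusted p of 0.0389 and limma's adjusted p = 0.317, and it was -0.74 without heterozygous array 2. The last probe set of Smad3, 1450471_at, was over the filter on 4 of 15 arrays and was not tested, at 4.3, 11.8 and 20.7 units in heterozygous and 6.8, 11.2 and 33.1 units in control hearts.

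Smad7, the inhibitory SMAD, is itself a target of the pathway. Its bright probe set 1423389_at had 287.7, 514.3 and 783.3 units in heterozygous hearts, against 322.6, 403.2 and 608.3 units in control hearts. Heterozygous arrays spread more widely than controls and lay on both sides of them. The difference was 0.13 (-0.35 to 0.61), a fold of 1.10 with limma's adjusted p = 0.823. Its size was unsteady when arrays were left out: it was 0.01 without heterozygous array 1, 0.05 without array 7 and 0.25 without array 3. Without the 4 arrays of high Actb ratio it was 0.42. It was 0.34 after median centring and 0.12 after quantile normalization. Leaving out heterozygous arrays 5 and 6 or control array 2 in turn gave 0.21 each time, and leaving out control array 5 gave 0.08. The probe set 1443771_x_at had 47.0, 82.2 and 154.9 units in heterozygous and 33.4, 115.1 and 215.9 units in control hearts, with a difference of -0.24 (-1.09 to 0.60).

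Tgfbi encodes a secreted matrix protein that binds collagens and integrins. Its 4 probe sets did not point the same way. Probe set 1415871_at had 205.4, 279.6 and 346.9 units in heterozygous hearts, against 72.4, 133.9 and 244.5 units in control hearts. All 7 heterozygous arrays lay above the control median and 4 above every control, and the highest control, array 8 at 244.5 units, stood apart from the next at 147.5. Mean log2 signals were 8.06 ± 0.31 (SD, n = 7) in heterozygous hearts and 7.02 ± 0.50 (SD, n = 8) in control hearts. The difference was 1.05 (0.57 to 1.53), a fold of 2.07 (1.48 to 2.89), with limma's adjusted p = 0.0712, and without control array 8 it was 1.18 and passed (limma's adjusted p = 0.0344).

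The brightest probe set of Tgfbi went in the opposite direction. Signals of 1437463_x_at were 236.7, 338.9 and 755.1 units in heterozygous hearts, against 455.6, 518.3 and 657.8 units in control hearts. Of the heterozygous arrays 6 lay below every control, while array 7, at 755.1 units, lay above them all. The difference was -0.55 (-0.98 to -0.12), a fold of 0.683 with limma's adjusted p = 0.244, and without heterozygous array 7 it was -0.73 and passed (limma's adjusted p = 0.0405). An _x_at suffix marks a probe set with some probes that may match other transcripts, an _s_at suffix probes shared by several transcripts, and an _a_at suffix probes shared by transcripts of the same gene. The remaining probe sets stood higher in heterozygous hearts without passing. For 1448123_s_at the values were 166.6, 444.5 and 628.5 units in heterozygous and 240.7, 299.6 and 356.7 units in control hearts, with 6 of 7 heterozygous arrays above every control and array 6 below them all. For 1456250_x_at they were 266.0, 452.3 and 594.0 units in heterozygous and 195.0, 315.7 and 601.0 units in control hearts, with overlapping groups. Each of them differed by 0.44 (-0.05 to 0.94), a fold of 1.36.

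Within an array, the ratio of 2 probe sets of a gene does not depend on a factor applied to the whole array. It can still change under quantile normalization, which is not such a factor. The log2 ratio of Tgfbi 1415871_at over 1437463_x_at, a pair chosen after the values were seen, had a lowest, median and highest value of -1.88, -0.15 and 0.09 in heterozygous hearts, against -2.90, -1.97 and -1.11 in control hearts. Heterozygous arrays 1 to 6 lay between -0.67 and 0.09, above every control, and array 7 lay at -1.88 among the controls. The ratio restates the opposite differences of this pair with any factor common to the array removed, and which transcripts each probe set reports was not analysed here.

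**Figure D5:**
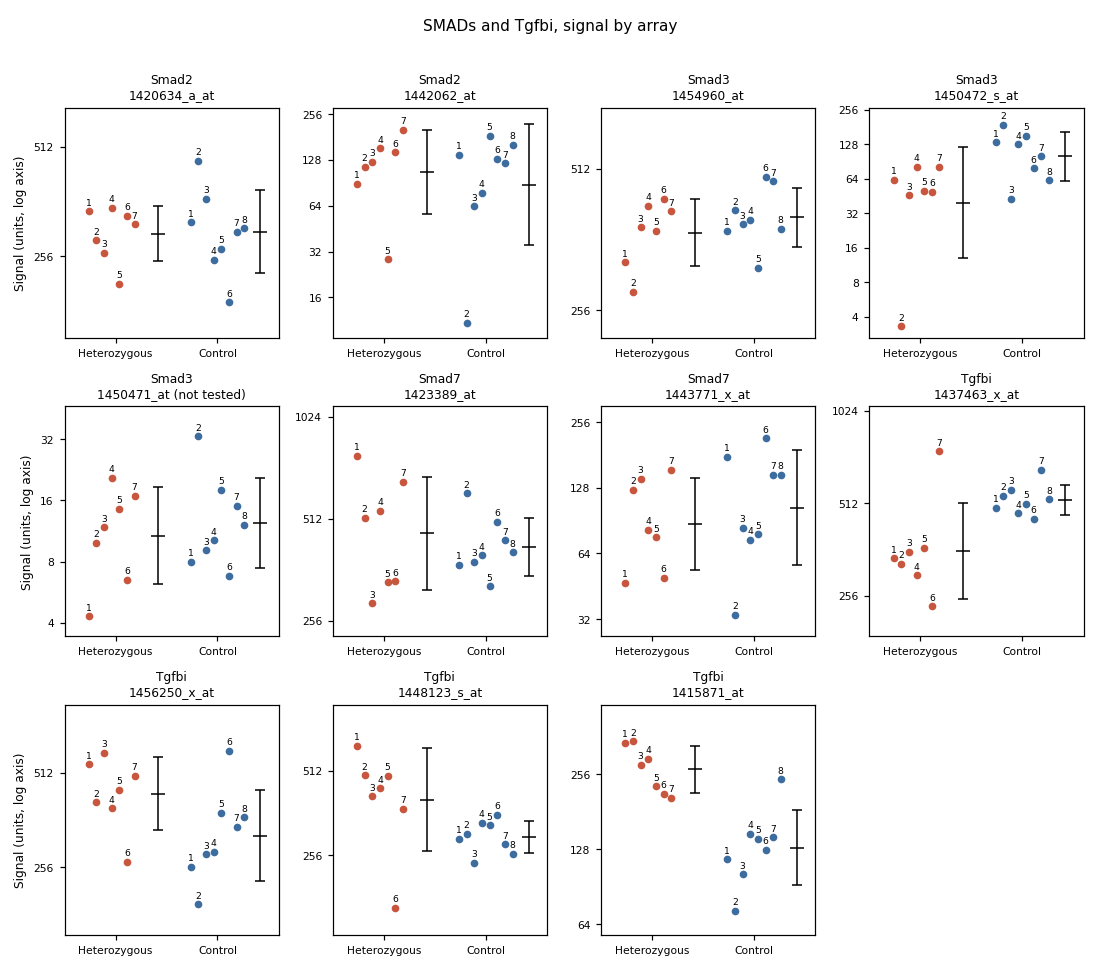
Signal of each SMAD and Tgfbi probe set on every array (log axis, signal units), with heterozygous hearts left of control hearts, array numbers beside the points and geometric means ± 1 SD of log2 signal in black. Tgfbi 1415871_at has 205.4 to 346.9 units in heterozygous and 72.4 to 244.5 units in control hearts, while in 1437463_x_at 6 of 7 heterozygous arrays lie below the lowest control, 455.6 units.

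Other genes of the pathway were described from 4 lists with no member among them, each gene by its brightest tested probe set. Of 77 listed genes 73 were tested, and 0 passed in either direction. Over the 16627 genes tested in this way, 0.102% were called higher and 0.186% lower. At an unadjusted p under 0.05, 9 of the 73 were higher, or 12.3%, and 3 were lower, or 4.11%, against 4.80% higher and 10.4% lower over all genes. The median difference of the 73 was 0.15, against -0.08 over all genes. Of the listed genes, 7 also stand in the lists of fibroblast or smooth muscle markers. No test sets these lists against other genes.

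Among 19 genes of ligand storage and activation, 2 were higher (10.5%) and 1 lower (5.26%) at an unadjusted p under 0.05. Their median difference was 0.01. Decorin (Dcn), a matrix proteoglycan that binds TGF-beta, had 9164.6, 12214.4 and 17666.6 units in heterozygous hearts, against 4553.9, 6976.0 and 8131.2 units in control hearts. The groups did not overlap, and the fold was 1.84 with limma's adjusted p = 0.063, while its other probe set differed by -0.47. Itgb6, a subunit of an integrin that releases latent TGF-beta, had 39.3, 72.8 and 125.0 units in heterozygous and 108.9, 179.9 and 316.2 units in control hearts, a fold of 0.415 with limma's adjusted p = 0.078. The membrane metalloproteinase gene Mmp14 had 207.3, 407.3 and 517.2 units in heterozygous and 188.6, 238.5 and 452.7 units in control hearts, with limma's adjusted p = 0.338. Its other probe sets differed by -0.05 and 1.26.

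Of 12 genes of the receptor complex, 1 was higher and 1 lower at an unadjusted p under 0.05, or 8.33% each. Their median difference was 0.15. Bambi, a decoy receptor that lacks a kinase domain, had 406.4, 637.1 and 776.7 units in heterozygous hearts, against 285.3, 366.1 and 477.1 units in control hearts. Its fold was 1.64 with limma's adjusted p = 0.0955 in its only probe set. Zfyve9, which brings SMAD2 and SMAD3 to the receptor, had 321.8, 405.5 and 482.5 units in heterozygous and 372.1, 516.6 and 543.3 units in control hearts, a fold of 0.809. The type I receptor gene Acvr1 stood at a fold of 1.13, while its other probe sets differed by -0.42 and -0.02.

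No gene of the 16 SMAD partners and inhibitors reached an unadjusted p under 0.05, and their median difference was 0.03. Smad4, the common partner of the receptor-activated SMADs, had 1663.5, 1975.5 and 2294.2 units in heterozygous and 1482.9, 1663.4 and 1905.6 units in control hearts, a fold of 1.19 with limma's adjusted p = 0.355. Yap1, a transcriptional coactivator, stood at a fold of 1.31 and Foxh1, a DNA-binding partner of SMAD2, at 0.527, both with overlapping groups. The other tested probe set of Yap1 differed by -0.23 and that of Foxh1 by -0.72.

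Of 26 targets known to be induced by TGF-beta, 6 were higher (23.1%) and 1 lower (3.85%) at an unadjusted p under 0.05. Over all genes these shares were 4.80% and 10.4%. The median difference of the targets was 0.26. Of the listed targets, 6 also stand in the lists of fibroblast or smooth muscle markers. They include Acta2, Tagln and Col1a2, which were among the higher genes, so the count is not separate from those lists. The cartilage matrix protein gene Comp had 126.2, 255.7 and 520.6 units in heterozygous hearts, against 76.4, 97.9 and 169.0 units in control hearts. Its fold was 2.46 with limma's adjusted p = 0.0659. The smooth muscle actin gene Acta2 had 4370.9, 6857.9 and 9424.2 units in heterozygous and 3167.6, 3668.4 and 5038.6 units in control hearts, a fold of 1.70 with limma's adjusted p = 0.0755. Its other probe sets differed by -1.55 and 0.95. The actin-binding protein gene Tagln had 408.5, 873.8 and 1540.9 units in heterozygous and 400.1, 447.3 and 528.3 units in control hearts, a fold of 1.85 with limma's adjusted p = 0.129.

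Markers of the cells in a whole heart were measured on the same arrays, each gene by its brightest tested probe set. In bulk tissue, fewer cells of a type and less RNA per cell cannot be told apart. For comparison, 39.9% of all tested probe sets had differences above 0. Over all genes by their brightest probe set, 4.80% were higher and 10.4% lower at an unadjusted p under 0.05. At an adjusted p under 0.05 these shares were 0.102% and 0.186%. All 10 fibroblast markers had differences above 0 in these probe sets, with 4 at an unadjusted p under 0.05 and a median of 0.31. Other tested probe sets were below 0 in Dcn (-0.47), Pdgfra (-0.38 to -0.18), Tcf21 (-0.49) and Col1a1 (-0.52). They were above 0 in Col1a2 (0.24 to 0.69) and Col3a1 (0.19). The summed signal of the 10 markers was 21693.1 to 39298.2 units in heterozygous against 17001.3 to 21090.1 units in control hearts. Dcn, at 9164.6 to 17666.6 units in heterozygous and 4553.9 to 8131.2 units in control hearts, is the brightest of them. The mean log2 signal of the list, which weights its genes equally, overlapped between the groups, at 9.75 to 10.99 in heterozygous and 10.07 to 10.33 in control hearts, and heterozygous array 2 was the lowest of all at 9.75. Of 8 smooth muscle markers 7 were above 0, with a median of 0.69. Their sums were 18044.0 to 24331.8 units in heterozygous against 12802.2 to 19989.1 units in control hearts. Des, the brightest by median, had medians of 8023.2 units in heterozygous and 7735.0 units in control hearts, and weighs heavily in the sums. Other tested probe sets differed by -1.55 and 0.95 in Acta2, -0.36 in Des and -0.24 in Myocd. Endothelial markers were above 0 in 8 of 10, with sums of 6621.6 to 10576.6 units in heterozygous against 6212.9 to 7545.9 units in control hearts. Their other tested probe sets were -0.15 to 0.57 in Flt1 and -0.89 in Cdh5. Macrophage and monocyte markers were above 0 in 6 of 11, with sums of 6786.1 to 16828.3 units in heterozygous against 7853.5 to 10556.6 units in control hearts. All 9 platelet markers were below 0, and Ppbp and Clec1b fell (limma's adjusted p under 0.05). Their sums were 1132.7 to 2772.1 units in heterozygous against 1946.2 to 2978.6 units in control hearts. All 6 erythroid markers were below 0, from -1.37 in Alas2, which fell, to -0.02 in Hba-a2. Their sums were 987.8 to 2290.5 units in heterozygous against 2433.5 to 3162.1 units in control hearts, and Alas2 alone had medians of 444.9 units in heterozygous and 1434.0 units in control hearts. The mean log2 signal of the erythroid list overlapped, at 6.25 to 7.47 in heterozygous and 7.22 to 8.13 in control hearts. Of 10 atrial markers 8 were above 0 and 2 below. Sln, Myl7 and Myl4 rose (limma's adjusted p under 0.05) with overlapping groups, while Kcna5 and Bmp10 stood at differences of -0.62 and -0.81 without passing. The other tested probe set of Sln differed by -0.94 and that of Myl4 by -0.07, and Myl7 had no other. The atrial sums were 11599.1 to 42722.6 units in heterozygous against 7428.1 to 12061.0 units in control hearts. The list of ventricular markers had a median of -0.01, but it holds genes that atrial muscle also expresses. Among them the cardiac myosin gene Myh6 had 15214.2 to 45577.3 units in heterozygous and 19765.5 to 60903.5 units in control hearts. The part of these cell types in the differences of the TGF-beta genes was not tested. Lmna had geometric means of 772.1 units in heterozygous and 574.8 units in control hearts (limma's adjusted p = 0.349), and since a substitution leaves the transcript in place, this does not check the labels.

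For each member, the genes most like its brightest probe set were found by Pearson's correlation of deviations from the group means over the 15 arrays. These arrays share scaling and RNA quality, and the values are descriptions chosen as the highest among all genes. Tgfb1 was most like Trak1 (0.96), Ubl7 (0.96) and Prrc2a (0.95), Tgfb2 most like Akr1a1 (0.89), and Tgfb3 most like Arl2bp (0.91). Among the receptors Tgfbr1 was most like Zfp518b (0.89), Tgfbr2 most like Serpinb6a (0.90) and Tgfbr3 most like Slco6b1 (0.90). Smad2 was most like Dock1 (0.90), Smad3 most like Cpne1 (0.93) and Smad7 most like Oas1a (0.85). Tgfbi, by 1437463_x_at, was most like Foxl2 (0.92), Gbp7 (0.91) and Irgm2 (0.90). In this probe set heterozygous array 7 stood apart at 755.1 units, with the next at 366.2, and its weight in these correlations was not tested. No other member was among the 3 genes most like a member.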

How the data were processed

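Total RNA of whole hearts, extracted with an RNeasy kit per the labels' protocols, was biotin-labelled and measured on 15 one-colour Affymetrix arrays. The intensities deposited by the authors, a single linear value for each probe set on each array, are credited to GCRMA in the submitters' processing notes. They run from 0.1 to 80754.9, with a 2% trimmed mean of 250.0 on every array, which is not the form of GCRMA output, so how probes were summarised is not settled here. Signals were log2-transformed with no pseudocount. Of 45101 probe sets, 34958 name 1 gene in the platform annotation. After leaving out 64 control probe sets, 38870 with a log2 signal over 4 on at least 7 arrays entered limma 3.58.1 under R 4.3.3 (functions lmFit and eBayes, with group as the only term, two-sided, Benjamini-Hochberg, threshold 0.05). The fit was tested on simulated data. Exact rank sum tests and figures used scipy 1.17.1 and matplotlib 3.10.9 under Python 3.11.15. Alternatives were other filters, a floor, scalings, weights, priors, an Actb covariate, the replicate number as a block and leaving out arrays. The genes named are all members, the 3 genes of each pathway list with the smallest p, and the genes most correlated with each member; called markers, Kcna5, Bmp10, Hba-a2 and Myh6 were named after their values were seen. The members and lists were chosen with earlier results of these data known. No batch was tested, scan dates not being used here. List genes without a single-gene probe set were not analysed here.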

Additional observations from a re-analysis of the deposited data

Results flagged for a closer look

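In 52 groups of arrays, 1 per member probe set and genotype, the gap between the most extreme array and its neighbour was compared with the whole range of log2 signal in the group. It exceeded Dixon's 95% critical value in 8 groups, where chance gives about 1 in 20. The arrays concerned were not the same throughout. In heterozygous hearts, array 3 was lowest in Tgfb1 1445360_at at 46.3 units, with the next at 83.3, and array 6 was lowest in Tgfb2 1438303_at at 3.8 units, with the next at 30.9. Array 5 was lowest in Smad2 1442062_at at 28.4 units, with the next at 89.1, and array 2 was lowest in Smad3 1450472_s_at at 3.3 units, with the next at 46.1. Array 7 was highest in Tgfbi 1437463_x_at at 755.1 units, with the next at 366.2, and array 6 was lowest in Tgfbi 1448123_s_at at 166.6 units, with the next at 375.3. In control hearts, array 5 was highest in Tgfbr2 1425444_a_at at 199.7 units, with the next at 30.5, and array 2 was lowest in Smad2 1442062_at at 10.9 units, with the next at 63.3.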

How the results depend on the processing

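Across 26 alternatives, 14 member probe sets gave 363 values, of which 351 kept their direction, 12 turned and 6 passed the threshold. The member count of 0 became 1 with a log2 filter at 6 (Tgfbi 1415871_at, limma's adjusted p = 0.0350), 1 with a floor at 6 (0.0323), and 2 with a trended robust prior (Tgfbi 1415871_at, 0.0232, and Tgfbr2 1426397_at, 0.0490). It was 0 to 1 when each array was left out, with Tgfbi 1437463_x_at passing without heterozygous array 7 and Tgfbi 1415871_at without control array 8. Over these alternatives the adjusted p of Tgfbi 1415871_at ran from 0.0232 to 0.175 and that of Tgfbr2 1426397_at from 0.0490 to 0.293. The pathway count of 0 became 5 with the filter, 5 with the floor (Itgb6, Dcn, Bambi, Acta2 and Comp each time), 1 with array weights (Comp) and 6 with the trended prior (those 5 and Tagln). It was 0 to 2 when each array was left out, with Col1a2 and Acta2 passing without heterozygous array 2 and Tagln and Comp without heterozygous array 7. Of all probe sets 98 passed, 35 higher and 63 lower, against 192 with the filter, 287 with the floor and 312 with the trended prior. Median centring passed 65, 51 higher and 14 lower, and quantile normalization passed 65, 37 higher and 28 lower. The exact rank sum test passed 0, with 4953 at an unadjusted p under 0.05, and leaving out each array gave 19 to 154. The count moved by over 1.5 times without heterozygous arrays 1 (45), 4 (24), 6 (53) and 7 (154) and without control arrays 1 to 7 in turn (27, 31, 28, 43, 51, 56 and 19). The cause of these shifts was not tested. The labels do not say whether the replicate numbers pair the mice. Deviations of same-numbered arrays correlated between -0.062 and 0.056, which cannot decide it, since differently numbered arrays were not compared. With the replicate block 0 members and 1 of all probe sets passed. The sign turned in Tgfb1 1420653_at (0.08) and Tgfbr3 1433795_at (-0.12) without the 4 arrays of high Actb ratio together, a setting chosen after seeing the data. Smad2 1420634_a_at was 0.19 with median centring, 0.09 with the Actb covariate, 0.05 by the rank sum estimate, 0.06 without the 4 arrays and -0.11 to 0.07 when each array was left out. Smad3 1454960_at was 0.10 with median centring and 0.03 without the 4 arrays. Dim signals scatter widely, which limits what the probe sets under about the array medians can show.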
